A study of Mus musculus with 41 samples.

Results

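The genes described here carry out antigen presentation by the major histocompatibility complex (MHC) class I pathway in the mouse. They are 10 named genes: the heavy chain genes H2-D1, H2-K1 and H2-T23, the light chain gene B2m, the peptide transporter genes Tap1 and Tap2, the loading factor gene Tapbp, and the immunoproteasome genes Psmb8, Psmb9 and Psmb10. They were picked by symbol from a list that had been chosen on fibroblast footprint and RNA values of this same experiment, so that their fold changes, standard errors and threshold calls in fibroblasts are given below as a description of the genes and not as tests of them. All 10 had a row among the 22438 genes of the ribosome footprint tables and among the 55385 genes of the RNA tables.

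The study asked what is lost when ribosome rescue or nonsense-mediated decay fails, and compared mutant with control mice by ribosome profiling, which sequences the RNA pieces covered by ribosomes (ribosome-protected fragments, called footprints here), and by RNA sequencing. Footprints were measured in 30 libraries and RNA in 11. Whole embryos (E8.5, C57BL/6NJ) were Hbs1l -/- or wild type, with several embryos pooled in each of 3 libraries per genotype. Cerebella (P14, C57BL/6J) were Atoh-Cre; Hbs1l cKO or Atoh-Cre; Hbs1l +/+, with 3 libraries each; this Cre acts in the granule cell lineage, and per the methods the mutants were Hbs1l fl/-, so that the other cells of the tissue keep 1 Hbs1l allele where controls have both. Mouse embryonic fibroblasts (MEFs, C57BL/6) were CAG-Cre ER; Hbs1l cKO, CAG-Cre ER; Pelo cKO, CAG-Cre ER; Upf2 cKO, or CAG-Cre ER alone as controls, and all of them, controls included, were treated with tamoxifen. They are called Hbs1l-/-, Pelo-/-, labelled Upf2-/- and control MEFs below. According to the methods, the MEFs and the Atoh-Cre mice also carried the C57BL/6J allele of n-Tr20, a tRNA gene, and each MEF culture came from one embryo. There were 3 footprint libraries per MEF genotype, each mutant having its own 3 control libraries from its own sequencing pool. The RNA libraries came from other dishes than the footprints, with 3 per genotype except Pelo-/-, which had 2, and 1 set of 3 controls. In whole tissue and in mixed cultures, more RNA per cell and more cells of one type cannot be told apart.

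Class I molecules show peptides from inside the cell to T cells and natural killer cells. Proteasomes cut proteins into peptides, and the immunoproteasome subunits encoded by Psmb8, Psmb9 and Psmb10 replace the constitutive catalytic subunits in cells exposed to interferon. The transporter made of Tap1 and Tap2 moves the peptides into the endoplasmic reticulum, where tapasin (Tapbp) helps to load them onto a heavy chain paired with beta-2-microglobulin (B2m). H2-D1 and H2-K1 encode classical heavy chains; H2-T23 encodes the non-classical Qa-1 chain. Interferon-responsive factors (IRF and STAT proteins) and the transactivator Nlrc5 are known to raise the transcription of genes of this pathway.

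In the mouse genome (GRCm38), 8 of the 10 genes lie on chromosome 17 within 2.12 Mb. Psmb9 (chr17:34181987-34187764, minus strand), Tap1 (chr17:34187553-34197225, plus strand), Psmb8 (chr17:34197721-34201454, plus strand) and Tap2 (chr17:34203527-34216321, plus strand) are neighbours within 34.3 kb. Tapbp (chr17:33915899-33929292, plus strand), H2-K1 (chr17:33996017-34000347, minus strand), H2-D1 (chr17:35262730-35267499, plus strand) and H2-T23 (chr17:36029773-36032855, minus strand) lie on either side. B2m (chr2:122147686-122153083, plus strand) and Psmb10 (chr8:105935735-105938444, minus strand) are on other chromosomes.

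Promoter windows (250 bases before to 50 after the start, RefSeq, GRCm38.p6) were found for 9 of the 10 genes, the exception being Tap2. The stretches of H2-D1, H2-K1 and B2m that hold most of their matched motifs are shown because these chains form the class I molecule and because their control elements are the classical ones of the pathway. Capitals mark the GGGGATTCCCC run that holds the kappa B core, TGACGC (X2 box core) and ATTGG or its complement (Y box) in the heavy chain genes. In B2m they mark the complement of the interferon-stimulated response element core, the kappa B core and the Y box. The H2-D1 stretch is chr17:35262918-35263047 (plus strand), the H2-K1 stretch is chr17:34000334-34000463 (minus strand, read from that strand) and the B2m stretch is chr2:122147537-122147646 (plus strand). The windows follow RefSeq starts, while the gene spans above are from Gencode. The H2-D1 stretch therefore lies inside its Gencode span, and the H2-K1 stretch partly overlaps its own.
H2-D1: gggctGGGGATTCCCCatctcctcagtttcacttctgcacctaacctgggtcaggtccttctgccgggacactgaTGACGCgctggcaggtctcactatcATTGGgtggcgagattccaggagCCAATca
H2-K1: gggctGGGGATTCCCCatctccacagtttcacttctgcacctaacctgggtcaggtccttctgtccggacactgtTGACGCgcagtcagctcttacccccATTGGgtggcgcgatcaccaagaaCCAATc
B2m: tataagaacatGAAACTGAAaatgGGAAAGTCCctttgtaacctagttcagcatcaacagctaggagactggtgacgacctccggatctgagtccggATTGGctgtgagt
Both heavy chain promoters carried the kappa B core, the X2 core and a pair of Y boxes in the same order, and B2m carried an interferon-stimulated response element core 139 bases upstream of its start. A further kappa B core of H2-K1, 240 bases upstream of its start, lies outside the stretch shown.

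Across the 9 windows, searched on both strands with overlaps allowed, the interferon-stimulated response element core TTCNNTTTC was found in 2 (B2m and H2-T23), against 7.13% of 32851 promoter windows of the same length. The gamma-activated sequence TTCNNNGAA was found in 1 (Psmb8, 97 bases upstream of its start), against 7.02%. The kappa B core GGANNNNCC was found in 3 (H2-D1, H2-K1 and B2m), against 42.3%. TGACGC was found in 2 (H2-D1 and H2-K1), against 6.12%, and ATTGG in 7, against 33.8%. Psmb10 and Psmb8 lacked a Y box within the window, and Psmb10 held no match to any of the motifs. These matches are descriptions of the letters in the windows. Variants of the letters were not searched, so a window without a match can still hold a variant of an element. This applies to H2-D1 and H2-K1 for the interferon-stimulated response element core.

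The deleted genes served as a check of the labels. Hbs1l footprints were 54.4 ± 4.98 CPM (counts scaled to library size; SD, n = 3) in control and 4.94 ± 3.58 in Hbs1l -/- embryos, and 40.8 ± 3.55 in control and 14.5 ± 1.5 in mutant cerebella. In MEFs, Hbs1l footprints were 35.8 ± 3.46 CPM in controls and 1.92 ± 0.579 CPM in Hbs1l-/-, and Pelo footprints were 35.0 ± 3.30 CPM in controls and 2.60 ± 0.525 CPM in Pelo-/-. Upf2 went the other way: 116 ± 2.90 CPM in the libraries labelled Upf2-/- against 54.1 ± 4.63 CPM in their controls, and 14.6 ± 6.01 TPM (a length-corrected share of all transcripts) against 4.65 ± 0.911 TPM in RNA. Counts over the whole gene do not isolate the deleted part, so these libraries are called "labelled Upf2-/-" throughout. Footprint depth was 2634480 to 7298812 counts per library in embryos, 10919139 to 22591768 in cerebella and 5782990 to 25607974 in MEFs. RNA depth was 22713643 to 86425762 estimated counts. Summed fibroblast markers were at 22900 to 33900 footprint CPM in every MEF group, and granule neuron markers were at 3480 to 4950 CPM in the cerebella.

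The control levels of the genes were set side by side per kilobase of coding sequence, since longer genes collect more footprints. B2m stood far above the others in each sample type, at 1930 ± 14.1 CPM per kb (SD, n = 3) in the MEF controls of the Pelo pool, 424 ± 111 in control cerebellum and 175 ± 20.2 in control embryos. In these MEFs it was followed by Tapbp (28.2 ± 1.89), then Psmb10 (14.9 ± 1.60) and Tap1 (13.9 ± 0.526), whose libraries overlapped, and H2-D1 (11.5 ± 1.57) below them. H2-K1 (6.67 ± 1.43), Tap2 (3.47 ± 0.111), Psmb8 (2.63 ± 0.800), H2-T23 (1.73 ± 0.717) and Psmb9 (0.563 ± 0.541) came next. From Tap2 down, the libraries of each gene overlapped with those of its neighbour in this order. The order differed by tissue: in control cerebellum H2-D1 came second at 204 ± 44.7 CPM per kb, with Tapbp at 31.7 ± 3.75, Psmb10 at 27.0 ± 1.72 and H2-K1 at 21.9 ± 1.24. In control embryos Psmb10 came second at 29.6 ± 1.06, followed by H2-D1 at 13.8 ± 3.34, H2-K1 at 11.5 ± 1.77 and Tapbp at 6.68 ± 1.34. The 3 sample types were sequenced in separate pools, so differences between them were not tested.

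The first fibroblast comparison asked how ribosome occupancy changed when Pelo, which encodes the factor that pairs with HBS1L to rescue stalled ribosomes, was removed. Every one of the 10 genes carried more footprints in Pelo-/- MEFs than in controls, and in each the 3 mutant libraries lay above the 3 controls, as they did in 28.5% of the genes tested. All 10 passed an adjusted p of 0.05 (edgeR quasi-likelihood test, adjusted over all genes), where 44.1% of the 12486 genes tested were called and 22.9% were called higher. Their median log2 fold change was 2.68 (range 1.33 to 4.86), while the median over all genes was 0.00. Psmb9 reached the filter on low counts through the mutant libraries, 1 of its 3 control libraries being at the limit, so that its call had to be higher; the other 9 genes were all called higher.

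The classical heavy chain genes were among the strongest. H2-K1 footprints were 7.75, 6.26 and 9.63 CPM in the controls and 164, 146 and 167 CPM in Pelo-/- MEFs, a log2 fold change of 4.34 (SE 0.13, 20.2-fold). H2-D1 footprints were 13.6, 14.6 and 11.1 CPM in the controls and 200, 171 and 194 CPM in the mutants, a log2 fold change of 3.84 (SE 0.11, 14.3-fold). In both genes the lowest mutant library was more than 10 times the highest control. H2-T23, the non-classical heavy chain, was lower in abundance and moved less, from 0.968, 2.36 and 2.23 CPM to 12.6, 9 and 16.4 CPM (log2 fold change 2.77, SE 0.31). The light chain gene B2m, already the most abundant, went from 695, 689 and 685 CPM to 1770, 1810 and 1600 CPM. Its log2 fold change of 1.33 (SE 0.07) was the smallest of the group, although it stood for the largest gain in footprints.

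The 3 immunoproteasome genes were not alike. Psmb8, which encodes the catalytic subunit beta-5i, had the highest fold change of the group, from 2.90, 2.03 and 1.60 CPM to 61.2, 48.8 and 79.5 CPM (log2 fold change 4.86, SE 0.24, 29.0-fold). Psmb9 (beta-1i) was at 0.176, 0.163 and 0.802 CPM in the controls and 7.42, 3.77 and 9.22 CPM in the mutants (log2 fold change 4.17, SE 0.52), the largest error of the group, on control levels below 1 CPM. Psmb10 (beta-2i), the member of the trio away from chromosome 17, went from 13.2, 12.6 and 10.7 CPM to 46.7, 40.3 and 62.0 CPM (log2 fold change 2.03, SE 0.16). It started highest and gained the smallest fold of the trio.

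The transport and loading genes formed a narrow band. Tap1 went from 29.9, 31.4 and 29.1 CPM to 127, 97.9 and 163 CPM (log2 fold change 2.1, SE 0.16) and its partner Tap2 from 7.39, 7.48 and 7.04 CPM to 44.0, 35.9 and 51.4 CPM (2.58, SE 0.14). Tapbp went from 42.1, 42.4 and 37.5 CPM to 178, 153 and 202 CPM (2.13, SE 0.11). Their controls lay within a narrow range of one another, and in each of these genes the third mutant library was the highest and the second the lowest.

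**Figure D1:**
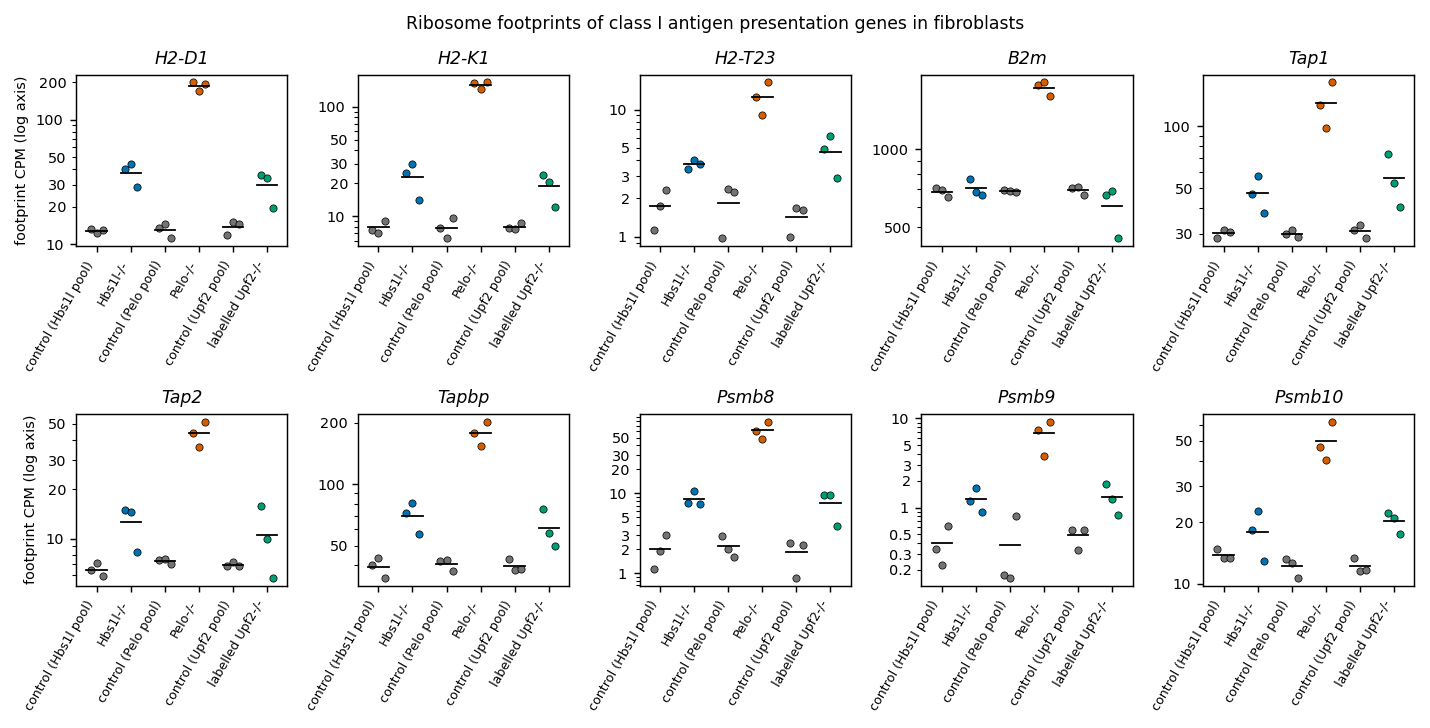
Footprint CPM (log axis) of the 10 genes in each of 18 MEF libraries, by genotype and control pool; points are libraries and bars are group means. The 3 Pelo-/- libraries lie above all others for every gene, and B2m is the gene for which Hbs1l-/- and labelled Upf2-/- libraries overlap with their controls.

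HBS1L is the partner of PELO in ribosome rescue, and most of the same genes were higher in Hbs1l-/- MEFs, B2m and Psmb10 being the exceptions. Of the 10 genes, 8 passed the threshold, all of them higher, where 34.1% of 11984 genes were called and 17.4% were called higher, and the median was 1.01 (range 0.04 to 2.04). Psmb8 again had the highest fold change, from 1.13, 1.91 and 3.04 CPM in the controls to 7.55, 10.7 and 7.29 CPM (log2 fold change 2.04, SE 0.29). H2-D1 went from 13.2, 12.2 and 13.0 CPM to 40.1, 44.2 and 28.6 CPM (1.55, SE 0.15) and H2-K1 from 7.55, 7.09 and 9.11 CPM to 24.7, 30 and 14.2 CPM (1.51, SE 0.22). In these 3 genes the third mutant library was the lowest, still above every control.

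The other 5 genes that passed were Psmb9 (log2 fold change 1.58, SE 0.48), H2-T23 (1.09, SE 0.29), Tap2 (0.94, SE 0.21), Tapbp (0.82, SE 0.12) and Tap1 (0.63, SE 0.12). In each of the 8 genes the mutant libraries lay above every control, which held for 23.4% of the genes tested. Psmb9 reached the filter through its mutant libraries, 0 of its control libraries being at the limit, and of the other 9 genes 7 were called higher. B2m did not pass: its footprints were 709, 696 and 655 CPM in controls and 768, 684 and 667 CPM in the mutants, a log2 fold change of 0.04 (SE 0.07, adjusted p = 0.676 in edgeR). Psmb10 overlapped with the controls through mutant replicate 3 (14.8, 13.3 and 13.3 CPM against 18.3, 22.8 and 12.9 CPM; log2 fold change 0.35, SE 0.17). Without control replicate 1, 6 genes passed instead of 8.

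Upf2 encodes a core factor of nonsense-mediated decay, a separate pathway of mRNA surveillance. In the libraries labelled Upf2-/-, 8 of the 10 genes passed the threshold, all higher, where 43.4% of 12166 genes were called and 22.3% were called higher, with a median of 0.97 (range -0.21 to 2.06). Psmb8 went from 2.41, 0.872 and 2.26 CPM to 9.65, 9.49 and 3.86 CPM (log2 fold change 2.06, SE 0.39) and H2-T23 from 0.991, 1.68 and 1.63 CPM to 4.91, 6.18 and 2.89 CPM (1.72, SE 0.32). H2-K1 went from 7.86, 7.58 and 8.70 CPM to 23.9, 20.4 and 12.1 CPM (1.22, SE 0.21). The third mutant library was the lowest for each of the 10 genes, and in these 3 genes it stayed above the controls.

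Psmb9 (1.38, SE 0.42), H2-D1 (1.11, SE 0.19), Tap1 (0.83, SE 0.16), Psmb10 (0.73, SE 0.13) and Tapbp (0.61, SE 0.13) passed as well. Of these, Psmb9 again reached the filter through its mutant libraries, with 0 control libraries at the limit, and 7 of the other 9 genes were called higher. In 8 genes the mutant libraries lay above every control, against 27.5% of the genes tested. Tap2 did not, its mutant libraries being at 15.9, 9.94 and 5.79 CPM, above, above and below the controls (6.87, 7.18 and 6.86 CPM). B2m was at 667, 688 and 453 CPM against 712, 713 and 666 CPM, the one gene whose log2 fold change was below 0 (-0.21, SE 0.12).

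The footprint effects of the genotypes were then compared with each other, each effect being taken against its own controls. The Pelo-/- effect exceeded the Hbs1l-/- effect in all 10 genes, by a median of 1.69 on the log2 scale (range 1.29 to 2.84), and 9 passed the threshold, where 5.55% of 12526 genes did and 3.45% did so in that direction. The differences were 2.84 (SE 0.30) for H2-K1, 2.83 (SE 0.45) for Psmb8, 2.30 (SE 0.20) for H2-D1 and 1.29 (SE 0.09) for B2m, and the exception was Psmb9 (2.59, SE 0.89, adjusted p = 0.118 in edgeR). Against the effect in the libraries labelled Upf2-/- the median difference was 1.78 (range 1.05 to 3.12), and 9 passed, where 13% of 12675 genes did and 6.82% did so in that direction. The exception here was H2-T23 (1.05, SE 0.51, adjusted p = 0.207 in edgeR). The 9 include Psmb9 (2.79, SE 0.83), on 2, 2 and 9 control footprints in the Pelo pool and 8, 5 and 8 in the Upf2 pool. Psmb9 reached the filter of the single comparisons through its mutant libraries, so its difference is a description only. Between the labelled Upf2-/- and the Hbs1l-/- effects, 0 of the 10 genes passed (4.93% of 12334 genes passed, 2.88% higher), and 0 did so at an unadjusted p under 0.05 or with DESeq2. Those differences ran from -0.43 (SE 0.27, H2-D1) to 0.64 (SE 0.45, H2-T23); with such errors a difference of that size was not detectable.

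The 3 sets of MEF controls did not differ from each other as separate samples do. Control libraries with the same number in different pools differed by a chi-square of 1.10 to 1.18 per gene, close to sampling noise, while libraries with different numbers differed by 3.91 to 12. The 3 comparisons are therefore not independent, and the 6 control libraries in a difference may stand for 3 cultures. With the mutant libraries compared directly and no controls, a comparison chosen after the data were seen, 10 genes passed for Pelo-/- against Hbs1l-/-, 10 for Pelo-/- against labelled Upf2-/- and 0 for labelled Upf2-/- against Hbs1l-/-. The mutants were sequenced in separate pools, so that in this direct comparison pool and genotype cannot be told apart. The share of all genes passing in it is not given here, so its counts are descriptions only.

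**Figure D2:**
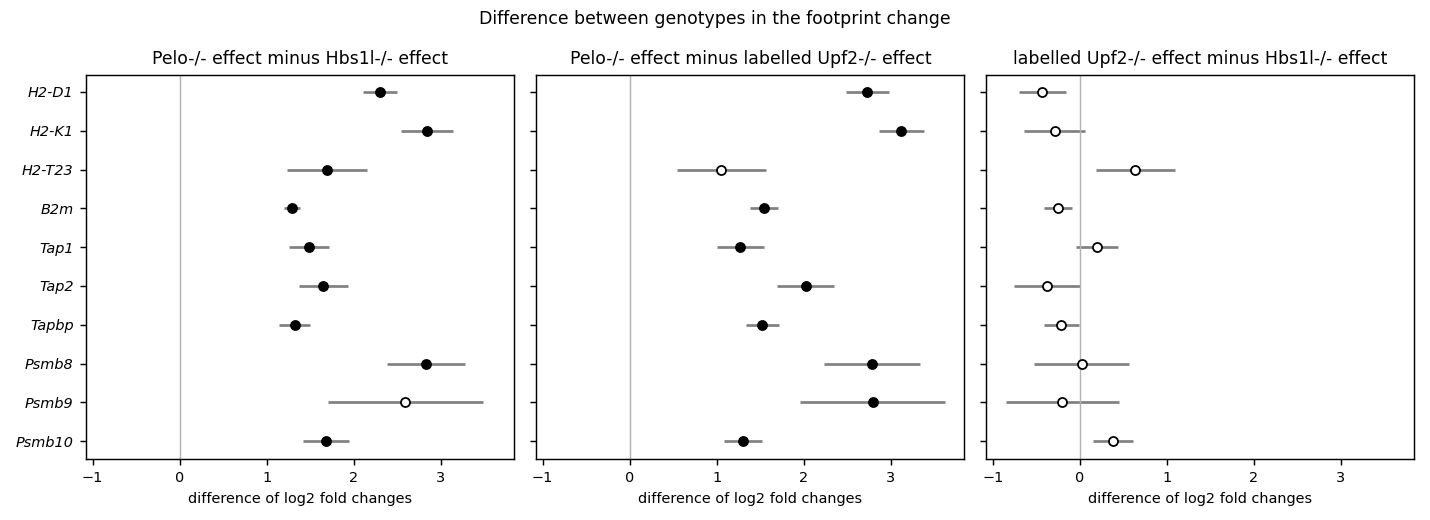
Difference between genotypes in the footprint log2 fold change of each gene; points are estimates, bars are ± 1 SE, and filled points passed an adjusted p of 0.05. The differences between Pelo-/- and the other genotypes are all above 1, and those between labelled Upf2-/- and Hbs1l-/- lie on both sides of 0.

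RNA of the same genes did not follow this order. In Hbs1l-/- MEFs all 10 genes had more RNA than controls, 10 of 10 passing the threshold where 23.1% of 15318 genes were called and 12.7% were called higher, with a median log2 fold change of 1.54 (range 0.42 to 2.59). On log2(TPM + 1) in limma with no filter, where 92 of 34666 genes were called, 0 of the 10 passed, at log2 fold changes of 0.44 to 2.21 and adjusted p of 0.0501 to 0.229. H2-K1 RNA was 3.46, 5.07 and 7.40 TPM in controls and 35.0, 32.7 and 17.7 TPM in Hbs1l-/- MEFs (log2 fold change of estimated counts 2.2, SE 0.23). H2-D1 RNA was 7.49, 9.03 and 9.18 TPM in controls and 37.5, 39.2 and 23.5 TPM in the mutants (1.93, SE 0.17). Psmb8 RNA was 1.17, 1.84 and 2.05 TPM in controls and 12.1, 13.7 and 6.04 TPM in the mutants (2.59, SE 0.29). In each, the third mutant library was the lowest and lay above every control. The mutant libraries lay above every control in all 10 genes, and in 21.1% of the genes tested.

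The remaining RNA changes in Hbs1l-/- MEFs were 1.57 (SE 0.24) for Tap2, 1.56 (SE 0.29) for Psmb9, 1.51 (SE 0.23) for H2-T23, 1.02 (SE 0.14) for Tap1, 0.85 (SE 0.15) for Tapbp, 0.65 (SE 0.13) for Psmb10 and 0.42 (SE 0.10) for B2m. B2m RNA, which rose from 276, 348 and 354 TPM to 449, 496 and 382 TPM, is the case where RNA was higher and footprints were level.

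In Pelo-/- MEFs, where the footprints were highest, the RNA changes were smaller than those of footprints. Of the 9 genes tested (Psmb9 had too few RNA counts), 2 passed, where 32.1% of 14705 genes were called and 15.5% were called higher, and the median log2 fold change was 0.19 (range -0.34 to 0.73). The 2 were H2-D1, at 16.7 and 14 TPM against the controls above (0.73, SE 0.11), and H2-K1, at 11.5 and 10.4 TPM (0.63, SE 0.18). On log2(TPM + 1) in limma with no filter 0 passed. In that setting 0 of 32801 genes were called, so its 0 says nothing particular to these genes. Psmb8 RNA was 1.90 and 1.10 TPM in Pelo-/- MEFs, one within the control range and the other below it, with a log2 fold change of -0.23 (SE 0.26). Tap1 RNA was 4.95, 5.67 and 5.58 TPM in controls and 6.39 and 4.56 TPM in the mutants (-0.06, SE 0.10), and Psmb10 RNA was 28.5, 27.4 and 34.2 TPM against 28.7 and 27.2 TPM (-0.34, SE 0.12). For these genes the RNA groups overlapped while the footprint groups were far apart. B2m RNA lay above the controls, at 432 and 421 TPM, without passing (0.22, SE 0.08, adjusted p = 0.0815 in edgeR). H2-T23 RNA (2.55 and 2.00 TPM against 1.97, 1.76 and 1.82 TPM) also lay above every control without passing. So did Tap2 RNA (1.48 and 1.78 TPM against 0.988, 1.40 and 1.06 TPM). Psmb9 RNA was 0.364 and 0.115 TPM in Pelo-/- MEFs against 0.383, 0.459 and 0.436 TPM in controls, on 3 to 8.29 estimated counts in the mutants.

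In the RNA libraries labelled Upf2-/-, 1 of the 10 genes passed, where 20% of 15983 genes were called and 13.2% were called higher, with a median of 0.23 (range -0.32 to 0.70). This was H2-T23, at 2.50, 3.57 and 2.80 TPM against 1.97, 1.76 and 1.82 TPM (0.70, SE 0.20), and H2-D1 came next (0.37, SE 0.12, adjusted p = 0.0504 in edgeR). The count was 0 to 2 when single libraries were left out. It was 0 with the replicate block and in each TPM setting, and 2 with DESeq2. Psmb8 RNA was 1.42, 1.54 and 1.83 TPM, within the control range.

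**Figure D3:**
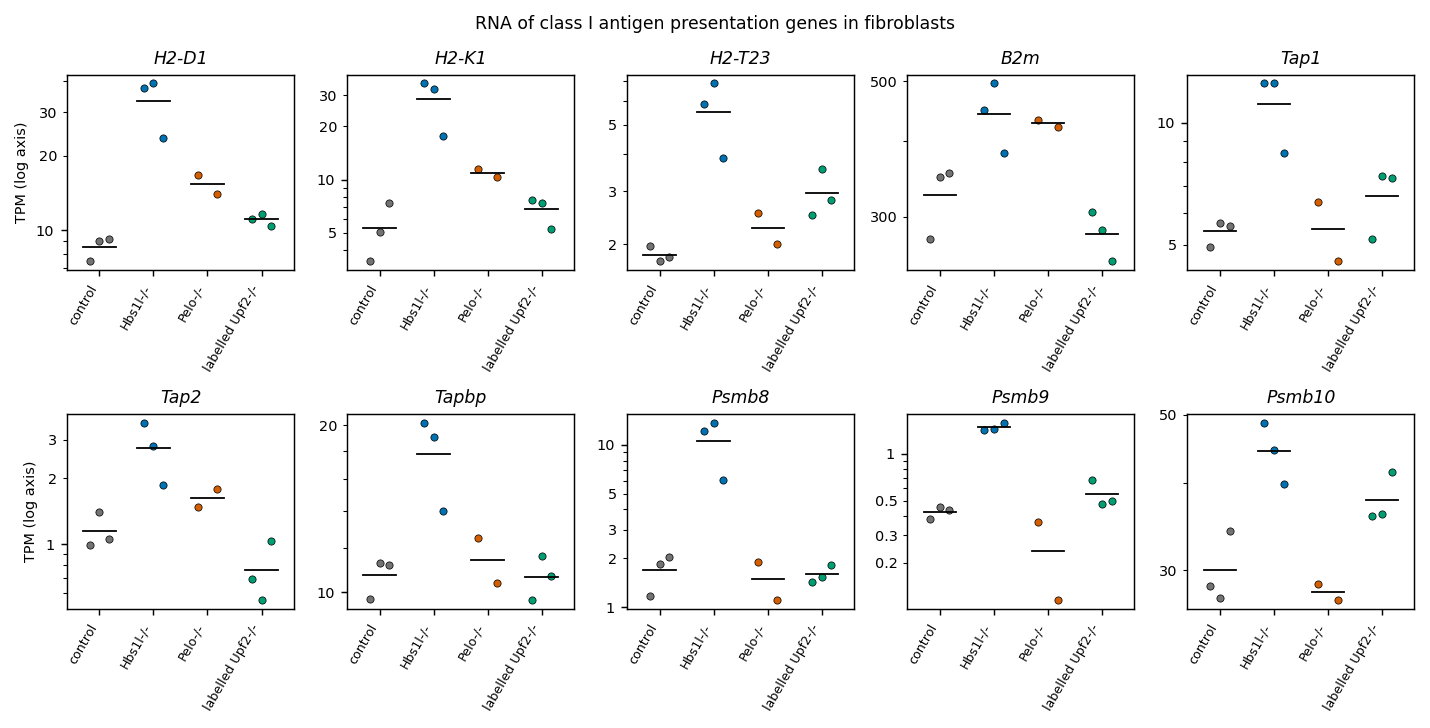
RNA level (TPM, log axis) of the 10 genes in each of 11 MEF RNA libraries; points are libraries and bars are group means. The 3 Hbs1l-/- libraries lie above all control libraries in every gene, while the 2 Pelo-/- libraries lie near the controls in most.

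Translation efficiency, the change in footprints beyond the change in RNA, was tested as an interaction between assay and genotype. In Pelo-/- MEFs all 10 genes were higher, where 40.5% of 13701 genes were called and 21.9% were called higher, with a median of 2.51 (range 1.11 to 5.22) against 0.05 over all genes. The values were 5.22 (SE 0.82) for Psmb9, 5.11 (SE 0.38) for Psmb8, 3.72 (SE 0.23) for H2-K1, 3.12 (SE 0.16) for H2-D1 and 2.63 (SE 0.42) for H2-T23. Psmb10 (2.38, SE 0.23), Tap1 (2.16, SE 0.22), Tap2 (2.12, SE 0.23), Tapbp (1.94, SE 0.15) and B2m (1.11, SE 0.11) followed. The efficiencies of Psmb8 and Psmb9 rest on few RNA reads, 24 to 38 and 3 to 8.29 estimated counts per Pelo-/- library. Psmb9 reached the filter of this fit through the 3 mutant footprint libraries, with 1 control footprint library, 1 control RNA library and 0 mutant RNA libraries at the limit, so that its call had to be higher; the other 9 genes were all called higher. Macrophage markers, described below, were also called higher in this comparison, in 13 of 14, and their part was not tested.

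In Hbs1l-/- MEFs, none of the 10 genes passed in translation efficiency (0.0152% of 13146 genes did, 2 genes in all, and 0.00761% were higher), 1 was below an unadjusted p of 0.05, and 0 passed with DESeq2. The median was -0.37 (range -0.67 to 0.05), and 9 of the 10 estimates were below 0. In the libraries labelled Upf2-/-, 3 of the 10 genes passed, all higher, where 18% of 13302 genes were called and 7.6% were called higher: Psmb8 (2.07, SE 0.50), H2-K1 (1.06, SE 0.28) and H2-D1 (0.73, SE 0.24). The count ran from 1 to 6 when single libraries were left out, 1 without footprint replicate 2 labelled Upf2-/- or control RNA replicate 3, and 6 without footprint replicate 3 labelled Upf2-/-. Footprints and RNA came from different dishes, so a difference in translation and a difference between dishes cannot be told apart.

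**Figure D4:**
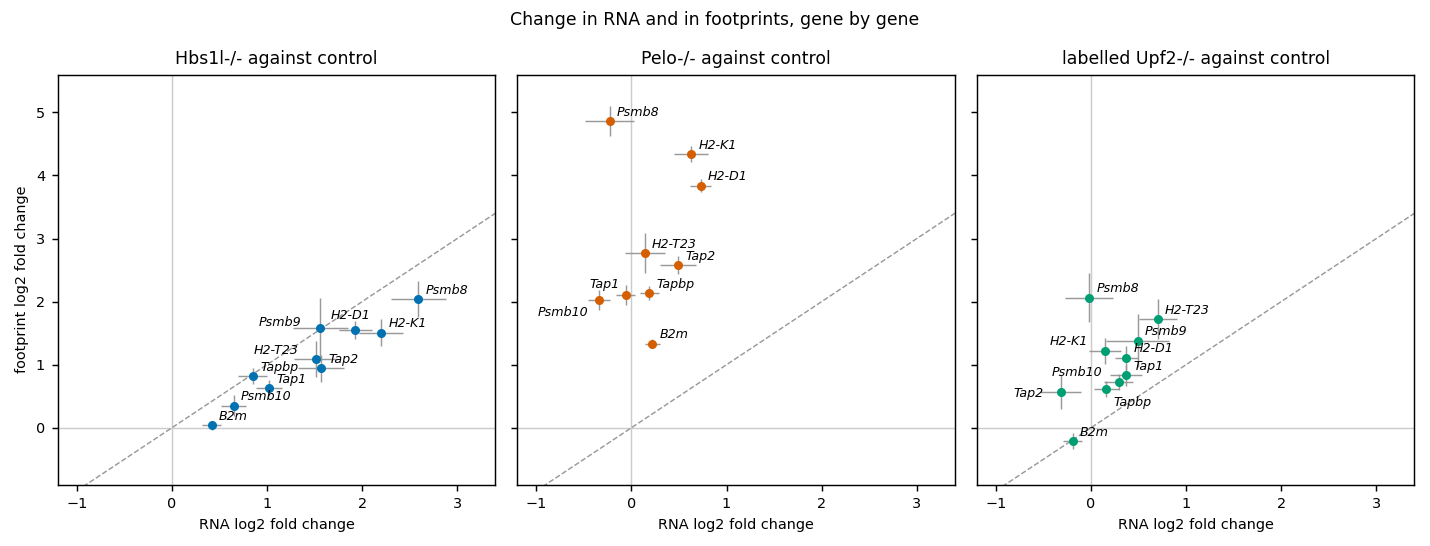
Log2 fold change of footprints (y axis) against that of RNA (x axis) for each gene in 3 MEF comparisons; bars are ± 1 SE and the dashed line marks equal change. In Hbs1l-/- 9 of the 10 genes have an efficiency estimate below 0, and in Pelo-/- every gene shown lies above the line; Psmb9 is not shown there because its RNA was too low to test.

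Part of the RNA assigned to these genes was in transcripts not annotated as protein coding. In Psmb10, protein-coding transcripts held 22% ± 0.842 of the gene's TPM in controls (SD, n = 3), 31.5% ± 3.73 in Hbs1l-/- and 17.6% ± 4.59 in Pelo-/- MEFs (n = 2), most of the rest being retained-intron transcripts. In Tap2 the coding share was 37.9% ± 4.00 in controls and in Psmb8 it was 56.2% ± 21.0. In B2m and H2-D1 it was 100%. The RNA values above include all transcripts of a gene, while footprints were counted on coding sequence.

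Heavy chain genes are near copies of each other, which bears on how reads could be placed. H2-D1 and H2-K1 share 985 of 1077 aligned coding bases (91.5%), H2-K1 and H2-T23 83.4%, and H2-D1 and H2-T23 81.1%. Of all 30-base pieces of coding sequence, 42.5% in H2-D1, 32.3% in H2-K1 and 53.0% in H2-T23 occurred in another gene as well. H2-D1 shared pieces with 39 other genes, H2-K1 being the first of them (22.9%). Tap2 shared 25.4% of its pieces, Tapbp 17.9% and Psmb8 16.5%, mostly with overlapping gene models. B2m, Psmb9 and Psmb10 shared 0%, so the values of these 3 genes do not rest on shared pieces. Values of single heavy chain genes are uncertain to that extent.

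Loss of Hbs1l in tissue was a comparison the choice of genes did not rest on. In embryos, 5 of the 10 genes had enough footprints to test (B2m, H2-D1, H2-K1, Tapbp and Psmb10) and 0 passed in edgeR, where 1.87% of 11416 genes were called and 0.92% were called higher; 0 were below an unadjusted p of 0.05. The log2 fold changes were 0.45 (SE 0.39) for H2-K1, 0.34 (SE 0.32) for Tapbp, 0.02 (SE 0.17) for B2m, -0.12 (SE 0.33) for H2-D1 and -0.34 (SE 0.24) for Psmb10, with adjusted p from 0.456 to 0.96. H2-K1 footprints were 15.4, 14.2 and 11.3 CPM in controls and 22.8, 6.80 and 26.5 CPM in mutants, a wide spread around the control range. Psmb10 was at 25.3, 23.8 and 23.7 CPM in controls and 22.1, 14.3 and 21.0 CPM in mutants, below the controls in each library.

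Tap2, which did not reach the filter on low counts, had 0 footprints in the 3 control embryo libraries, which allows a level of up to 0.311 CPM, and 6, 3 and 16 footprints in the mutants (1.73 CPM of their summed totals, at least 5.55-fold higher). Here and for the other genes at 0, the limit is that of 3 counts over the summed control libraries and covers counting error only, and the fold takes the mutant level without its error. Mutant replicate 3 held most of them, and without it the level was 0.772 CPM, at least 2.48-fold higher. Tap2 was the 1 gene of the 10 called by DESeq2 and by edgeR without the filter. With 0 control footprints its call could only be higher. The share of all genes called in those settings is not given here, so these calls are a description only. Markers of the early embryo summed to 7440 to 10000 CPM in controls and 1730 to 4220 CPM in mutants. Of the 10, 1 was called higher (Pou5f1) and 2 lower (the embryonic globin genes Hbb-y and Hba-x). Among all genes tested there, 0.92% were called higher and 1.87% in either direction. The part of these markers in the Tap2 counts was not tested.

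In cerebella all 10 genes were tested and 0 passed in edgeR (0.0624% of 14430 genes did, 0.0554% higher) or with DESeq2, and 1 was below an unadjusted p of 0.05. H2-D1 had the highest mean CPM of the group in each genotype here before correction for length, although B2m was higher in some libraries. H2-D1 was at 268, 255 and 174 CPM in controls and 135, 213 and 131 CPM in mutants (log2 fold change -0.54, SE 0.23, adjusted p = 0.364 in edgeR). One control library lay within the mutant range. Tapbp was at 49.2, 39.5 and 48.5 CPM in controls and 51.4, 58.2 and 54.9 CPM in mutants, without overlap and without passing (0.26, SE 0.12, adjusted p = 0.404 in edgeR). H2-K1 was at 26.0, 24.3 and 27.2 CPM against 21.1, 25.5 and 24 CPM (-0.14, SE 0.13), and B2m at 127, 130 and 197 CPM against 137, 145 and 179 CPM (0.02, SE 0.20). The other 6 genes had log2 fold changes between -0.46 (H2-T23, SE 0.23) and 0.06 (Psmb10, SE 0.13). The Hbs1l effects in MEFs, embryos and cerebella were not tested against each other.

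**Figure D5:**
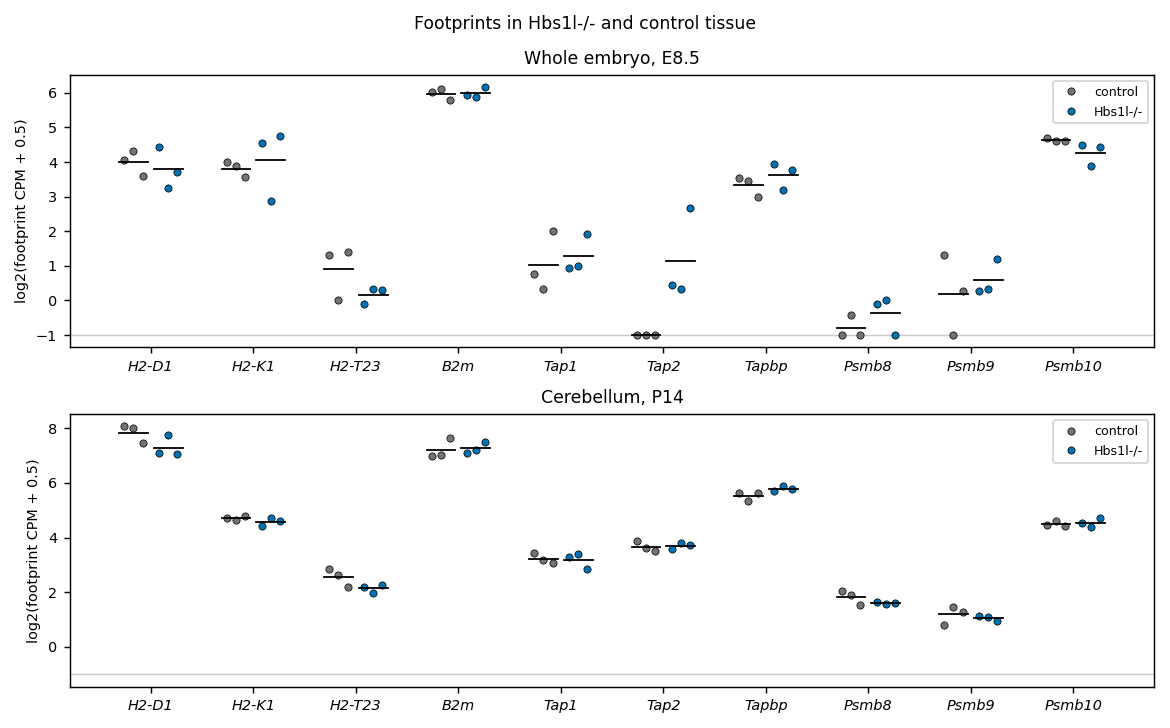
Footprint level, log2(CPM + 0.5), of the 10 genes in 6 embryo libraries (above) and 6 cerebellum libraries (below); points are libraries, bars are group means and the grey line is a count of 0. Control and Hbs1l mutant libraries overlap in most genes, and Tap2 is at 0 in all 3 control embryo libraries.

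Other heavy chain genes of the MHC were measured in the same MEF footprints. Of 15 listed, 6 reached the filter in Pelo-/- MEFs and all 6 were called higher (22.9% of all genes tested were), among them H2-Q4 (log2 fold change 4.82, SE 0.20) and H2-T22 (1.80, SE 0.30). H2-T24 had 136 footprints in Pelo-/- MEFs and 0 in their 3 controls, at least 27.1-fold higher over the summed totals. In Hbs1l-/- MEFs 2 of 3 were called higher (17.4% of all genes) and in the libraries labelled Upf2-/- 1 of 3 (22.3% of all genes), H2-Q4 being called in both (1.92, SE 0.27, and 2.06, SE 0.25) and H2-T22 in neither (0.34, SE 0.30, and 0.13, SE 0.30). H2-Q4 RNA was raised in Hbs1l-/- (2.43, SE 0.30) and did not pass in Pelo-/- MEFs (0.30, SE 0.26). Genes that only reached the filter through the mutant libraries had to be higher there, so the 6 of 6 is given as a description only. These genes also share pieces of sequence with the 3 heavy chains described above.

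Genes of the general loading and trimming machinery were called in both directions. Of 10 listed genes, 2 were called higher and 5 lower in Pelo-/- footprints, 2 and 2 in Hbs1l-/- and 2 and 1 in the libraries labelled Upf2-/-, with medians of -0.14, -0.09 and 0.04. In the same order, 22.9%, 17.4% and 22.3% of all genes tested were called higher, and 44.1%, 34.1% and 43.4% in either direction. Erap1, the aminopeptidase that trims class I peptides, was called higher in all 3 (log2 fold changes 1.33, SE 0.13; 0.79, SE 0.12; 0.54, SE 0.13). Canx (-0.36, SE 0.06) and Pdia3 (-0.36, SE 0.06), chaperones shared with other glycoproteins, were called lower in Pelo-/- footprints. Calr (-0.01, SE 0.07) and Uggt1 (-0.08, SE 0.06), which also serve other glycoproteins, did not pass there. Among 7 constitutive proteasome, assembly and activator genes, 3 were called higher and 0 lower in Pelo-/- footprints. Of all genes tested there, 22.9% were called higher and 44.1% in either direction. Among those 3 genes, Psme1 (1.04, SE 0.12) and Psme2 (1.30, SE 0.15) encode the interferon-inducible activator PA28. RNA of Psme1 and Psme2 was lower in the Pelo-/- RNA libraries, from other dishes (-0.45, SE 0.10, and -0.59, SE 0.10). Psmb5, Psmb6 and Psmb7, the constitutive counterparts of the immunoproteasome subunits, lay between -0.15 and 0.07 and did not pass in Pelo-/- footprints. Their RNA was called lower in Pelo-/- as well (-0.35, -0.35 and -0.31, SE 0.10, 0.10 and 0.09). Psmb6 was among the genes called lower in Hbs1l-/- footprints (-0.19, SE 0.07). In footprints labelled Upf2-/-, Psmb5 was called lower (-0.46, SE 0.12), and Psme1 (0.35, SE 0.10) and Psme2 (0.58, SE 0.15) higher.

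Known regulators of the pathway were measured next to their targets. Of 15 listed, 9 of 14 tested were called higher in Hbs1l-/- footprints, 9 of 15 in Pelo-/- and 8 of 14 in the libraries labelled Upf2-/-, with 0 lower in each, where 17.4%, 22.9% and 22.3% of all genes tested were called higher. Irf7, a factor that drives interferon responses, had log2 fold changes of 3.63 (SE 0.29), 5.89 (SE 0.26) and 3.58 (SE 0.36) in footprints and 4.03 (SE 0.35), 0.22 (SE 0.48) and 1.82 (SE 0.38) in RNA, in that order. Its footprints passed in all 3 genotypes, while its RNA passed in Hbs1l-/- and in those labelled Upf2-/- and did not pass in Pelo-/-. Irf9 and Stat2, which carry interferon signals to the nucleus, each had a footprint value of 3.56 (SE 0.17 and 0.15) in Pelo-/-, where their RNA values were 0.60 (SE 0.24) and 0.26 (SE 0.12). Nlrc5 reached the filter on low counts in the Pelo comparison alone among the comparisons of mutant with control footprints, through its mutant libraries, so that its call there had to be higher. Its footprints were at 0.455 ± 0.107 CPM in those controls and 7.19 ± 1.46 CPM in Pelo-/- MEFs (SD, n = 3). In RNA, 7 of 15 regulators were called higher in Hbs1l-/-, 1 in Pelo-/- and 7 in the libraries labelled Upf2-/-, against 12.7%, 15.5% and 13.2% of all genes.

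Interferon genes themselves were too low to test. Of 11 interferon and receptor genes only the 4 receptor genes could be tested, and in Pelo-/- footprints Ifngr1 (0.59, SE 0.07) and Ifnar2 (0.36, SE 0.08) were called higher. Ifngr2 was called lower in Hbs1l-/- footprints (-0.62, SE 0.11) and in those labelled Upf2-/- (-0.66, SE 0.10). Ifnb1 had 6, 7 and 20 footprints in the Pelo-/- libraries (0.558 CPM of their summed totals) and 0 in their 3 controls, which allows up to 0.0847 CPM, at least 6.59-fold higher. It had 1 footprint in Hbs1l-/- MEFs and 2 in those labelled Upf2-/-. Of 11 class II genes, 2 were called higher and 1 lower of 4 tested in Pelo-/- footprints (Cd74 2.46, SE 0.52; Ctss 1.39, SE 0.18; H2-Eb1 -1.68, SE 0.38). Among all genes tested there, 22.9% were called higher and 44.1% in either direction. In Hbs1l-/- footprints Ctss was called higher (0.81, SE 0.16), and H2-DMa (-1.36, SE 0.46) and H2-Eb1 (-1.25, SE 0.45) lower. In those labelled Upf2-/-, Ctss was called higher (0.80, SE 0.18) and H2-Eb1 lower (-1.14, SE 0.36). Cd74 reached the filter in the Pelo comparison alone among the MEF footprint comparisons, so its call also had to be higher. In embryos and cerebella 0 genes of these 6 lists passed in edgeR.

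Cells other than fibroblasts can hold class I genes, so markers of macrophages were read in the same libraries. Summed over 14 macrophage and microglia genes, none of them at 0, footprints were at 159 to 219 CPM in the 9 MEF control libraries, 276 to 385 in Hbs1l-/-, 537 to 764 in Pelo-/- and 220 to 268 in those labelled Upf2-/-. Of 13 tested, 10 were called higher in Hbs1l-/- and 13 in Pelo-/-, and 6 of 12 in those labelled Upf2-/-, where 17.4%, 22.9% and 22.3% of all genes tested were called higher. In RNA their sums were 93.2 to 157 TPM in controls, 194 to 268 in Hbs1l-/-, 136 to 220 in Pelo-/- and 82.2 to 160 in those labelled Upf2-/-, with 10, 1 and 0 of 14 called higher (12.7%, 15.5% and 13.2% of all genes). In translation efficiency 0 of 14 were called higher in Hbs1l-/-, 13 in Pelo-/- and 4 in those labelled Upf2-/- (0.00761%, 21.9% and 7.6% of all genes). Macrophage genes were thus called higher most often in the comparisons where the class I genes were, and their part in the class I values was not tested. Of 10 fibroblast markers, 8 were called higher in Hbs1l-/- and 8 in Pelo-/- footprints with 0 lower, and 7 were called higher and 2 lower in those labelled Upf2-/-, against the same shares of all genes as for the macrophage genes. Ptprc, a marker of all leukocytes, was at 4.24 ± 0.796 CPM in controls and 17.7 ± 3.11 CPM in Pelo-/- MEFs (SD, n = 3). Lymphocyte markers summed to at most 0.968 CPM in MEF footprints, with Cd3e at 0 in every MEF footprint group. Endothelial markers summed to 28.2 to 37.5 CPM in Pelo-/- against 79.0 to 87.5 CPM in their controls. Of 5 endothelial markers tested, 1 was called higher and 2 lower, where 22.9% of all genes were called higher and 44.1% in either direction.

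The genes whose footprints followed the class I genes most closely were found by the Pearson correlation of log2(CPM + 0.5) with the mean of the 10 genes over the 18 MEF footprint libraries, among 9777 genes with a mean of at least 5 CPM. They were Cxcl1 (r = 0.987), H2-Q4 (0.986), Zbp1 (0.985), Tor1aip1 (0.984) and Cxcl5 (0.981). The 9 control libraries are not independent and the mutants fall into separate groups, so these values are given as a description of likeness only. Cxcl1 and Cxcl5 encode chemokines and Zbp1 a sensor of nucleic acids.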

How the data were processed

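Footprint and RNA libraries of mouse embryos, cerebella and MEFs were analysed from the tables the authors deposited. Per the methods and the submitters' processing notes, footprint reads were cleared of ribosomal RNA with Bowtie2 2.2.3 and aligned with HISAT2 2.1.0 to mm10, and the deposited footprint counts are featureCounts reads on coding sequence. The deposited RNA files hold kallisto 0.42.4 estimated counts per transcript and the authors' TPM. Here both were summed per gene, estimated counts were rounded, and 100 histone-named rows were left out of the footprint tables, as in the methods. Multi-mapped reads can be placed differently by the 2 tools.

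Counts were tested with edgeR 4.0.16 in R 4.3.3 (filterByExpr, TMM, quasi-likelihood F test, Benjamini-Hochberg over all genes, threshold 0.05), each mutant against the controls of its own pool. Translation efficiency was the interaction of assay and genotype, and differences between genotypes were the interaction of pool and genotype. Footprint levels are CPM with TMM factors. The edgeR fits were tested on simulated data. Alternatives were DESeq2 1.42.0, other size factors, no filter, a replicate block, each library left out, the controls of other pools, and limma 3.58.1 on log2(TPM + 1) or log2(TPM + 0.1). Replicates are pools of embryos, single cerebella or cultures of single embryos per the methods.

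The genes, the pathway and marker lists and the motifs were chosen with earlier results of these data known. Named genes were the 10 genes, the deleted genes, at most 4 called members of each list with some that did not pass, and the 5 genes most alike. Coordinates are Gencode M21 on GRCm38; protein sequences were not used here, and values of some listed genes are not reported here.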

Additional observations from a re-analysis of the deposited data

Results flagged for a closer look

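The gene-by-gene differences between the Pelo-/- footprint effect and the effects of the other genotypes drew attention because the difference itself passed an adjusted p of 0.05 in edgeR. Against Hbs1l-/- they were 2.84 for H2-K1, 2.83 for Psmb8, 2.30 for H2-D1, 1.69 for H2-T23, 1.68 for Psmb10, 1.65 for Tap2, 1.48 for Tap1, 1.32 for Tapbp and 1.29 for B2m on the log2 scale. Against the libraries labelled Upf2-/- they were 3.12 for H2-K1, 2.79 for Psmb9, 2.78 for Psmb8, 2.73 for H2-D1, 2.02 for Tap2, 1.54 for B2m, 1.52 for Tapbp, 1.30 for Psmb10 and 1.27 for Tap1. The Psmb9 value rests on the few control footprints given above. The genes were chosen with these contrasts known and the controls are shared between pools, so these values describe the libraries. Macrophage markers differed in the same direction, 4 of 13 tested passing against Hbs1l-/- and 11 of 13 against labelled Upf2-/-. Of all genes tested, 3.45% and 6.82% passed in that direction. The part of the macrophage markers was not tested.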

How the results depend on the processing

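Of 70 gene values past the threshold, 20 lost it in at least 1 setting and 0 changed sign. The number of the 10 genes called in Pelo-/- footprints and Pelo-/- translation efficiency was 10 in every setting run, and it was 0 in every setting in cerebellum, in Hbs1l-/- translation efficiency and between labelled Upf2-/- and Hbs1l-/-. In embryos DESeq2 and the fit with no filter called 1 (Tap2, with 0 control footprints) in place of 0. In RNA, log2(TPM + 1) with no filter called 0 in Hbs1l-/- in place of 10 and 0 in Pelo-/- in place of 2. Of all genes it called 92 of 34666 in Hbs1l-/- and 0 of 32801 in Pelo-/-, so the Pelo-/- count is not particular to these genes. In those labelled Upf2-/- it called 0 in place of 1. That count was also 0 in both other TPM settings, 0 with the replicate block and 2 with DESeq2. With single libraries left out the count ran from 6 to 9 in Hbs1l-/- footprints, 7 to 9 in those labelled Upf2-/-, 9 to 10, 1 to 2 and 0 to 2 in RNA (Hbs1l-/-, Pelo-/-, labelled Upf2-/-), 1 to 6 in translation efficiency of those labelled Upf2-/-, and 8 to 10 and 8 to 9 in the differences of Pelo-/- from Hbs1l-/- and from labelled Upf2-/-. The causes were not tested.

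Values near 0 changed sign. Psmb8 between labelled Upf2-/- and Hbs1l-/- (0.02) was -0.01 in DESeq2, -0.03 with the replicate block and -0.11 in the direct comparison, and -0.36 to 0.33 with libraries left out; Psmb9 (-0.20) was 0.10 in the direct comparison and -0.65 to 0.10, and Tap1 (0.20) -0.03 to 0.38. Tap1 RNA in Pelo-/- (-0.06) was 0.004, 0.002 and 0.004 on the TPM scales. In RNA of those labelled Upf2-/-, Tapbp (0.16) was -0.01 on the 3 TPM scales and Psmb8 (-0.02) was 0.02 with no filter and -0.22 to 0.11. Tapbp translation efficiency in Hbs1l-/- (-0.02) was 0.01 with the replicate block and -0.18 to 0.11. Other ranges with libraries left out were -0.002 to 0.27 (H2-T23 RNA, Pelo-/-), -0.02 to 0.08 (B2m footprints, Hbs1l-/- MEFs), -0.25 to 0.51 (Psmb9 efficiency, Hbs1l-/-), -0.14 to 0.13 (B2m efficiency, labelled Upf2-/-), -0.07 to 0.10 and -0.56 to 0.12 (B2m and H2-D1, embryos), and -0.11 to 0.25, -0.02 to 0.13, -0.14 to 0.14 and -0.05 to 0.15 (B2m, Psmb10, Tap1 and Tap2, cerebella).

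Replicate numbers did not pair the libraries, since in no comparison did every same-numbered pair correlate over 0.1 in its deviations. The replicate block changed counts of called genes only in RNA of those labelled Upf2-/- (0 in place of 1) and their translation efficiency (2 in place of 3). On the TPM scales with a filter the median of all genes in Pelo-/- RNA moved by 0.11 and 0.12, and without a filter on counts by -0.14. Depth limits Psmb9 in MEFs and H2-T23, Tap1, Tap2, Psmb8 and Psmb9 in embryos most.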
